A study of Homo sapiens with 10 samples.

Results

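CR H460 cells, the H460 lung cancer cells that survived cisplatin, were compared with parental H460 cells by RNA sequencing. H460 is an established human lung cancer cell line. The comparison used 1 CR library and 3 parental libraries, chosen by their labels, which are 4 of the 10 libraries of the series. The CR cells came from a 3-day exposure to 4 µM cisplatin, followed by 3 days without drug. They were then re-plated, and RNA of the attached cells was collected on day 8. Parental cells were untreated 2D cultures of the same line. The 2 PR libraries (cells that survived 5 nM paclitaxel) and the DR library (cells that survived 0.5 µM doxorubicin), made on the same schedule, were used for the spread between replicates and for a comparison between drugs. The CR library is thus a population selected by attachment after treatment, and only 1 culture of it was sequenced. The labels number the parental libraries but do not say that they were separate cultures, so p-values measure the spread between these libraries, which may be technical.

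Cisplatin is a platinum compound that binds DNA and joins bases of the same or of opposite strands, which blocks polymerases. Nucleotide excision repair removes adducts within a strand, and the Fanconi pathway with homologous recombination resolves crosslinks between strands. Damaged cells with working p53 switch on CDKN1A (p21), an inhibitor of cyclin-dependent kinases, and can leave the cell cycle for good as senescent cells, which enlarge and secrete cytokines, proteases and growth factor binding proteins.

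The counts assigned to genes numbered 79627093 in the CR library and 65670034 to 73644667 in the parental libraries. Genes with at least 1 count numbered 22720 in the CR library, 21036 to 21603 in the parental libraries and 25781 to 26745 in the PR and DR libraries. Marker genes of several cell types were read as a description, which does not identify the cell line. Of the epithelial markers, KRT8 had an FPKM (fragments per kilobase of transcript, scaled to library size) of 447, 398 and 380 in parental replicates 1, 2 and 3 and 343 in the CR library, while EPCAM was at 0.114 or lower and CDH1 at 0.00457 or lower in these 4 libraries. The summed FPKM of the 6 epithelial markers moved the other way from KRT8, with 989 to 1143 in the parental libraries and 1274 in the CR library. In the CR library, 2 of the 6 lay above and 4 below every parental library. Of the 6 epithelial markers tested, edgeR called none (adjusted p under 0.05 against parental cells) and DESeq2 1, limma called none of the 4 it tested, and 1 was higher and 1 lower at an unadjusted p under 0.05. All 8 lung lineage markers and all 8 endothelial markers were under an FPKM of 1 in the 4 libraries. The summed FPKM of the 12 immune cell markers was 22.1 to 27.9 in the parental libraries and 72.7 in the CR library, of which CD68, a lysosomal membrane protein, made up 57.9, and the leukocyte marker PTPRC was at 0 in the parental libraries and 0.00834 in the CR library. Of the 8 immune cell markers tested, CD68 and NCAM1 (FPKM of 0.0808 in the CR library) were called higher and the globin HBA1 lower, or 25% and 12.5%. The summed FPKM of the 11 fibroblast markers was 587 to 1152 and 2888, of which S100A4 made up 2845 in the CR library, and DCN and PDGFRA were at 0.105 or lower. Of the 9 fibroblast markers tested, S100A4, ACTA2 (log2 fold change 2.11) and COL1A1 (2.27, with an FPKM of 0.783 in the CR library) were called higher and COL3A1 lower, or 33.3% and 11.1%, and the median log2 fold change was 1.87. It was 1.71 with the 2 of them that had 0 counts in every parental library set to a floor of 3 counts. No call lower was possible for these 2, or for 1 such immune cell marker. Beside these shares, 4.07% of all genes tested were called higher and 2.17% lower. The part of these markers in the differences reported here was not tested.

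In the CR cells, 869 genes were called higher and 463 lower than in the parental cells, out of 21362 genes tested, which is 4.07% and 2.17% (6.24% in either direction). A call is an adjusted p-value under 0.05 in the quasi-likelihood test of edgeR on the read counts, with Benjamini-Hochberg adjustment. The CR group holds 1 library, so its spread was taken to be that of the parental and PR replicates. In bulk RNA, fewer cells of a type and less RNA per cell cannot be told apart. Read as a description without a test, the CR library was more than 2-fold above every parental library for 392 genes (1.84%) and more than 2-fold below every one for 452 (2.12%) by log2(FPKM + 1), a measure that shrinks the differences of weakly expressed genes. Both criteria were met by 359 higher and 368 lower genes. On the same scale, pairs of parental libraries were more than 2-fold apart for 348 to 788 genes, while the CR library was apart from single parental libraries for 1374 to 2511.

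Parental replicate 3 stood most apart from the other parental libraries, with 210 genes more than 2-fold from both of them, against 130 for replicate 1 and 68 for replicate 2. The library names take 2 forms, with and without a hyphen. The CR library shares the hyphenated form with the DR library, parental replicate 2 and PR replicate 2, while parental replicates 1 and 3 and PR replicate 1 have the other. With the form of name as a covariate, 34 genes were called, all higher and all among the 869, and the 869 and 463 genes all kept their direction, with a median log2 fold change of 2.53 and -2.30. All 869 and all 463 also lay on the same side of parental replicate 2, the parental library that shares the CR library's form. They had been called in a fit that includes this library, so their side is no separate result and does not bear on the form of name. Without parental replicate 2, the count of calls fell from 1332 to 306, without PR replicate 1 to 699 and without PR replicate 2 to 686. Of 77 named genes that were called, 15 had an adjusted p-value under 0.05 in every fit that was run. They were CDKN1A, COL7A1, CPA4, H1-2, H2AC6, IGFBP7, ITGA3, MELTF, MFGE8, MMP1, OASL, SDC2, SERPINE2, SPATA18 and SULF2.

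The largest rise was that of MMP1, the interstitial collagenase that cuts fibrillar collagen. Its FPKM was 1.30, 1.03 and 0.478 in the parental libraries and 182 in the CR library, with a log2 fold change of 7.60 ± 0.47 (SE) and an adjusted p of 2.51e-04. CDKN1A, at chr6:36676463-36687332 of GRCh38.p14, had an FPKM of 33.0, 25.3 and 20.7 in the parental libraries and 654 in the CR library (log2 fold change 4.61 ± 0.32, adjusted p = 2.51e-04). Each of these CR values was far outside the parental range. SULF2, an extracellular enzyme that removes sulfate from heparan sulfate, was at 1.73, 0.838 and 1.30 in the parental libraries and 56.5 in the CR library. MELTF (melanotransferrin), an iron-binding protein anchored at the cell surface, went from 4.89, 1.81 and 2.95 to 88.7. SERPINE2, a secreted inhibitor of thrombin and urokinase, was already abundant in parental cells at 286, 245 and 222 and reached 3333 in the CR library. These genes differed from the parental cells by 13.3-fold (SERPINE2) to 194-fold (MMP1) in the mean FPKM. The other 7 of the 12 largest rises were H1-2, a linker histone, MFGE8, a secreted bridge to phosphatidylserine, SDC2, a heparan sulfate proteoglycan, IGFBP7, an insulin-like growth factor binding protein, COL7A1, the anchoring fibril collagen, CPA4, a carboxypeptidase, and APLP1, a relative of the amyloid precursor protein. The 12 were picked among called genes with a CR value more than 2-fold above every parental library, so neither property is a separate result. Their adjusted p-values were 0.00188 or lower.

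**Figure D1:**
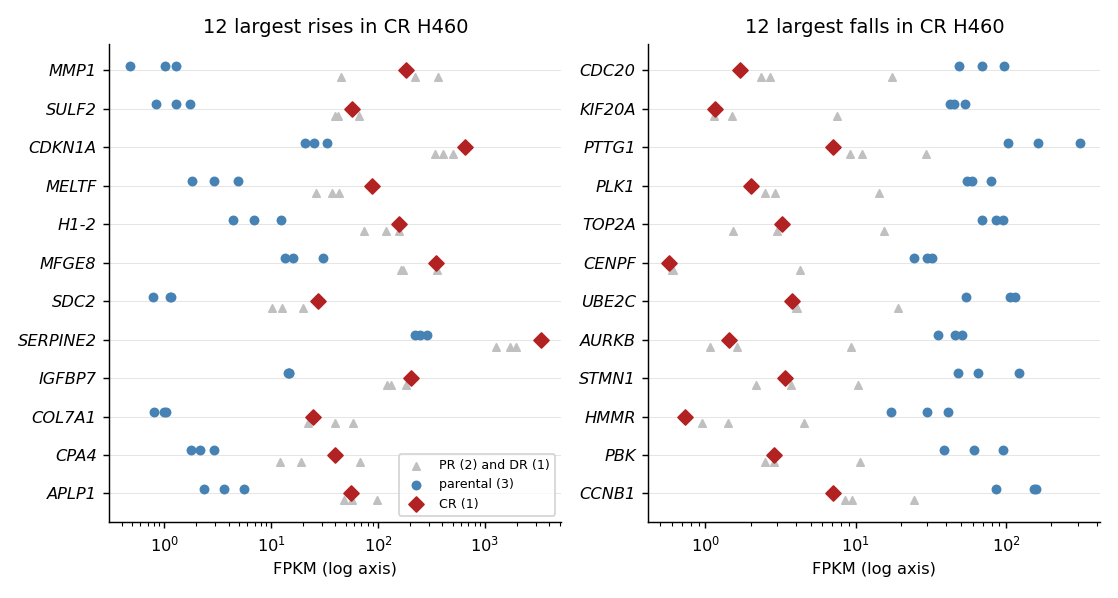
FPKM on a log axis of the 12 genes with the largest rise and the 12 with the largest fall in log2(FPKM + 1), with 1 point per library for parental (3), CR (1), and PR and DR (3 together) H460 cells. The genes were picked among those called and more than 2-fold from every parental library, so the CR library lies outside the parental range in each. Examples are MMP1 (0.478 to 1.30 parental, 182 CR) and CDC20 (48.7 to 96.8 parental, 1.70 CR).

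Among known targets of p53, 22 of 40 members tested were called higher and none lower, beside 4.07% and 2.17% of all genes tested. The median log2 fold change of the list was 1.44, against 0 over all genes tested, and 34 members lay above and 3 below every parental library, beside 35.5% and 26.7% of all genes tested. GDF15, a stress cytokine of the TGF-β family, had an FPKM of 34.1, 13.8 and 21.8 in the parental libraries and 273 in the CR library (log2 fold change 3.54 ± 0.44, adjusted p = 0.00333). SPATA18, which acts in mitochondrial quality control, went from 1.05, 0.756 and 0.981 to 9.10, and TP53I3, a quinone oxidoreductase, from 12.2, 11.2 and 10.1 to 54.1. In both the CR value was several times the highest parental value. MDM2, the ubiquitin ligase that degrades p53, was called higher with 14.1, 13.3 and 11.3 in the parental libraries and 47.6 in the CR library. The called members included brakes on the cell cycle and on p53 itself. FAS, a death receptor, was also called higher (log2 fold change 1.57 ± 0.35, adjusted p = 0.0296). It and the genes of the next sentence were picked after their values were seen and do not stand for all members that act in cell death. The BH3-only gene BBC3 (1.25 ± 0.38, adjusted p = 0.0822), BAX (0.57 ± 0.32, adjusted p = 0.311) and APAF1 (-0.54 ± 0.34, adjusted p = 0.372) were not called. Without parental replicate 2, 12 members were called, and with the form of name as a covariate 2.

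Of the 12 largest falls, 11 were members of the list of G2 phase and mitosis genes, and PBK, a mitotic kinase, was outside it. Of 50 members tested, 48 were called lower and none higher, beside 2.17% called lower among all genes tested, all 50 lay below every parental library, beside 26.7% of all genes tested, and the median log2 fold change was -3.98. CDC20, the activator of the anaphase-promoting complex, had an FPKM of 96.8, 69.0 and 48.7 in the parental libraries and 1.70 in the CR library (log2 fold change -5.40 ± 1.13, adjusted p = 0.0246). PLK1, a mitotic kinase, went from 79.8, 55.4 and 59.6 to 2.00, and HMMR, a spindle-associated protein, from 29.6, 41.3 and 17.1 to 0.735. The lowest parental value of each was more than 20 times that of the CR library. KIF20A and CENPF, which act at the spindle midzone and the kinetochore, PTTG1 (securin), TOP2A, which untangles DNA, UBE2C, AURKB, STMN1, PBK and CCNB1 complete the 12 largest falls, with log2 fold changes of -4.21 (CCNB1) to -5.65 (CENPF). The 2 members not called were BUB3 (log2 fold change -0.79 ± 0.32, adjusted p = 0.169) and CDC25B (-0.37 ± 0.35, adjusted p = 0.570). The PR replicates, which enter the estimate of the spread, differed in these genes, as in CDC20 with 17.4 and 2.33. Calls lower numbered 10 of the 50 without parental replicate 2, 40 without parental replicate 3, 48 without either PR replicate and 0 with the form of name as a covariate.

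Promoters of G2 and mitosis genes are known for a cell cycle genes homology region, bound by the MuvB complexes that repress them in resting cells and activate them before mitosis. Windows of 300 bases, 250 before to 50 after the start of the gene in RefSeq (GRCh38.p14), were searched on both strands for TTTGAA. The 4 windows below are shown because they hold it. The genes were chosen after the search, capitals mark TTTGAA or its reverse complement TTCAAA, and the sequences run 5′ to 3′ on the gene's strand, which is the plus strand in all 4. They are CDC20 (chr1:43358731-43359030), PLK1 (chr16:23678639-23678938), the mitotic cyclin CCNB2 (chr15:59104896-59105195) and HMMR (chr5:163460382-163460681).
CDC20: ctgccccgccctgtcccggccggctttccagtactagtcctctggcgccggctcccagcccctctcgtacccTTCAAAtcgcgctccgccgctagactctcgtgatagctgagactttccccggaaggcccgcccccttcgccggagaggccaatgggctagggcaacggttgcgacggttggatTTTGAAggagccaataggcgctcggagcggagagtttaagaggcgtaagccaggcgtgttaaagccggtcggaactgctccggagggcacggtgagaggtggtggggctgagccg
PLK1: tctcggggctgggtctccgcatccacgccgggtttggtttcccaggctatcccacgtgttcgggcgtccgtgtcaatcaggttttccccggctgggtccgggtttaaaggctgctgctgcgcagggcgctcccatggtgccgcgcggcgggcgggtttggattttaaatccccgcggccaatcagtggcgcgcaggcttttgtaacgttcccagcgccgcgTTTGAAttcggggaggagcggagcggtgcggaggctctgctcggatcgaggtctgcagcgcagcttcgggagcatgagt
CCNB2: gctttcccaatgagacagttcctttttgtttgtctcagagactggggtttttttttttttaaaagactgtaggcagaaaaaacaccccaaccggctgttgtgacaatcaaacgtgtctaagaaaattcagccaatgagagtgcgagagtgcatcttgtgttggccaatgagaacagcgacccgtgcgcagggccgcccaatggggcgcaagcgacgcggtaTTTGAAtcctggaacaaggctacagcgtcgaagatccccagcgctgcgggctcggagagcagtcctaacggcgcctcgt
HMMR: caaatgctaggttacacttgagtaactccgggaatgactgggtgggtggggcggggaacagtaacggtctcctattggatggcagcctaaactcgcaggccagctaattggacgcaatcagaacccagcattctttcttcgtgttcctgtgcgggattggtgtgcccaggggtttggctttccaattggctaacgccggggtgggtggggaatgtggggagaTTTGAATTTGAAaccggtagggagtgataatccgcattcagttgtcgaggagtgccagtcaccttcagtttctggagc
The first capital of the match lay 29 bases before the start in both PLK1 and CCNB2. HMMR held a pair of matches in tandem, 28 and 22 bases before the start. CCNB2 had an FPKM of 37.5, 48.4 and 34.5 in the parental libraries and 1.69 in the CR library. The windows of KIF20A, CCNB1, PTTG1, AURKB and STMN1, which are also among the 12 largest falls, held no match, which says only that these letters are not in these windows.

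Over all 27305 promoters, 15.4% held TTTGAA on either strand, and over the 14661 promoters of genes tested 10.9% did. The share was 29.9% (107 of 358) for genes called lower and 11.1% (68 of 611) for genes called higher. For genes called lower outside the G2/M and DNA replication lists it was 25.4% (76 of 299). In the G2/M list it was 67.4% (29 of 43), and in the DNA replication list 4.76% (2 of 42). The CCAAT box was held by 35.7% of all promoters, 54.2% of genes called lower, 72.1% of the G2/M list and 83.3% (15 of 18) of the cholesterol list. TTTGGCGC, a form of the E2F site, was held by 0.659% of all promoters and 14.3% (6 of 42) of the DNA replication list. These shares are descriptions of letters in windows and not of binding.

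Fewer DNA replication genes were called. Of 47 members tested, 20 were called lower and none higher, beside 2.17% and 4.07% of all genes tested, 45 lay below every parental library, beside 26.7%, and the median log2 fold change was -1.77. DBF4, the activating subunit of the CDC7 kinase that fires origins, had an FPKM of 11.5, 10.6 and 5.55 in the parental libraries and 1.05 in the CR library (log2 fold change -3.11 ± 0.54, adjusted p = 0.0124). TK1, the thymidine kinase of dividing cells, went from 60.2, 66.6 and 48.9 to 7.21, CDC45, a subunit of the replicative helicase, from 22.7, 22.8 and 16.6 to 2.74, and MCM7, another helicase subunit, from 159, 125 and 106 to 23.3. PCNA, the sliding clamp of replication and repair, was not called, with 218, 222 and 129 in the parental libraries and 107 in the CR library (log2 fold change -0.82 ± 0.37, adjusted p = 0.209). None of the 47 was called without parental replicate 2 or with the form of name as a covariate, and 30 were called lower without parental replicate 3.

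Among cyclins, cyclin-dependent kinases and their inhibitors, 2 of 24 members tested were called higher (8.33%) and 4 lower (16.7%). Over all genes tested these shares were 4.07% and 2.17%. Beside CDKN1A, CCND1 (cyclin D1) was called higher, with an FPKM of 33.0, 17.3 and 17.1 in the parental libraries and 106 in the CR library (log2 fold change 2.22 ± 0.38, adjusted p = 0.0109). CDKN2C, an inhibitor of CDK4 and CDK6, was called lower at 6.87, 8.98 and 6.27 against 1.11, and CDK2 at 26.2, 31.2 and 15.7 against 6.99. The repressors E2F7 and E2F8 were the other members called lower. Calls numbered 1 higher and 1 lower without parental replicate 2, and 2 and 3 without either PR replicate. CDKN2A and CDKN2B, the inhibitors of the INK4 locus, had 0 counts in the parental and CR libraries and were not tested.

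Of 15 nuclear lamina and chromatin proteins tested, 10 were called lower (66.7%) and none higher, beside 2.17% and 4.07% of all genes tested. The median log2 fold change was -2.09. LMNB1, the B-type lamin that senescent cells are known to lose, had an FPKM of 70.9, 59.9 and 45.1 in the parental libraries and 5.71 in the CR library (log2 fold change -3.38 ± 0.78, adjusted p = 0.0354). HMGB2, a DNA-bending protein, went from 44.2, 73.4 and 51.9 to 4.17. TMPO and LBR, proteins of the inner nuclear membrane, were also called lower, while LMNA, the A-type lamin, was not called (175, 214 and 200 against 210). The count was 2 without parental replicate 2, 8 without parental replicate 3, 7 without either PR replicate and 0 with the covariate.

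Histone genes moved in both directions. Of 17 tested, 6 were called higher (35.3%) and 2 lower (11.8%), beside 4.07% and 2.17% of all genes tested. The mRNAs of most replication-dependent histones end without a poly(A) tail, so a poly(A) library reads only the share that carries one. H1-2 had an FPKM of 6.93, 12.3 and 4.39 in the parental libraries and 157 in the CR library (log2 fold change 4.34 ± 0.43, adjusted p = 0.00132). H2AC6 went from 1.46, 2.39 and 2.103 to 29.4, H4C8 from 0.624, 0.409 and 1.01 to 15.1, and H2BC21 from 0.966, 0.953 and 2.00 to 15.3. In each, the CR value was over 7 times the highest parental value. H2BC5 and H2BC4 were the others called higher. The variants H2AZ1 (488, 489 and 283 against 66.5), which is made as polyadenylated mRNA, and H2AX (44.2, 25.8 and 19.98 against 7.32) were called lower. Histone genes are near-identical copies, and how reads shared between them were counted is not given in the sources used here, so the value of a single copy is uncertain. Calls higher numbered 6 with any 1 parental or PR replicate left out and 3 with the form of name as a covariate. Calls lower numbered 0 without parental replicate 2 and 1 without either PR replicate.

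**Figure D2:**
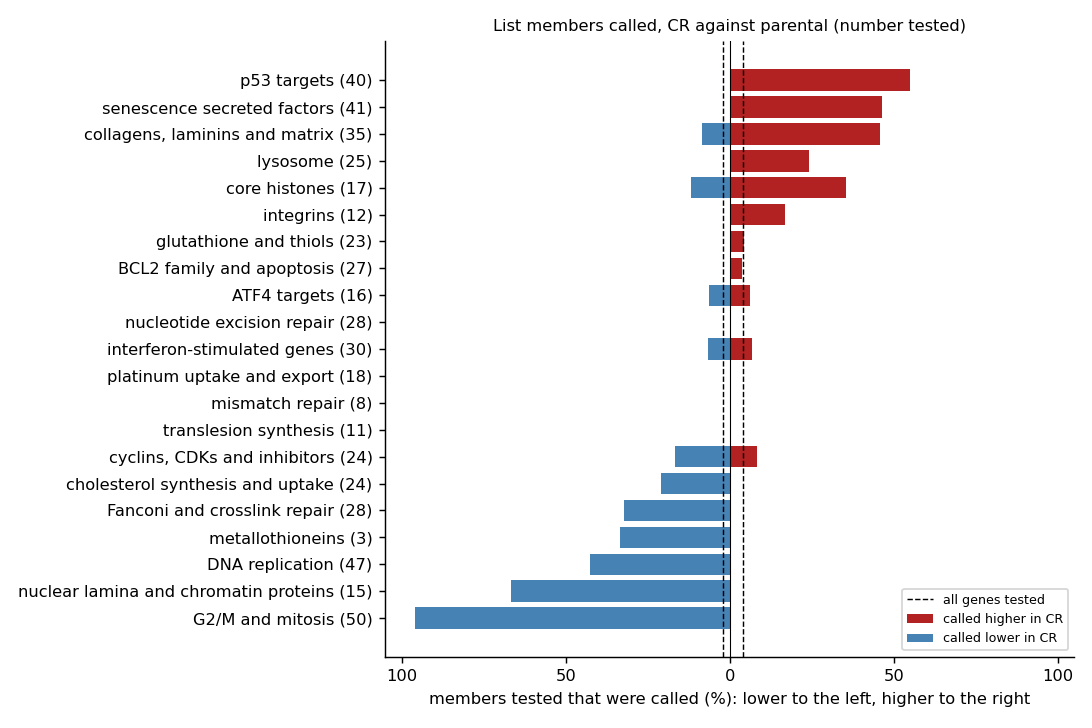
Share of the members tested in each gene list that were called higher (red, to the right) or lower (blue, to the left) in CR against parental cells, with the number tested in brackets and the shares over all genes tested, 4.07% and 2.17%, as dashed lines. The G2/M list lies furthest to the left with 48 of 50 called lower, and p53 targets furthest to the right with 22 of 40 called higher.

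Of 28 Fanconi and crosslink repair genes tested, 9 were called lower and none higher, beside 2.17% and 4.07% of all genes tested, 21 lay below every parental library, beside 26.7%, and the median log2 fold change was -1.59. FANCD2, which is loaded with ubiquitin at a crosslink, had an FPKM of 8.17, 8.63 and 6.04 in the parental libraries and 1.19 in the CR library (log2 fold change -2.70 ± 0.48, adjusted p = 0.0136). Its partner FANCI went from 20.3, 22.1 and 14.8 to 3.48, and UBE2T, the conjugating enzyme of that reaction, from 97.9, 128 and 63.8 to 19.2. EME1, a subunit of a structure-specific nuclease, went from 5.67, 8.52 and 5.92 to 1.19. These 4 were picked as the called members with the largest difference, so CR values below every parental value are no separate result. The list held no call without parental replicate 2 or with the covariate, and between 10 and 11 calls without any other single replicate.

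None of 28 nucleotide excision repair genes tested was called by edgeR, and the median log2 fold change was -0.19. At an unadjusted p under 0.05, 3 were higher and 5 lower, while DESeq2 called 2 higher and 2 lower and limma 2 lower. Without parental replicate 1 or 3, edgeR called 1 lower. ERCC1, the partner of the XPF nuclease, had an FPKM of 13.8, 18.6 and 14.1 in the parental libraries and 15.2 in the CR library (log2 fold change 0.03 ± 0.31, adjusted p = 0.996). The damage sensors DDB2 and XPC are both p53 targets, and DDB2 had the highest fold change of the list. DDB2 was at 11.4, 19.4 and 15.0 against 35.7 (1.23 ± 0.35, adjusted p = 0.0655) and XPC at 12.4, 12.8 and 14.0 against 22.3 (0.78 ± 0.29, adjusted p = 0.137). At the other end, CUL4A, the scaffold of the DDB2 ubiquitin ligase, was at 39.0, 49.0 and 33.3 against 17.4 (-1.25 ± 0.34, adjusted p = 0.0593). These 3 CR values lay outside the parental range without passing the test.

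Of 11 translesion synthesis genes tested and 8 mismatch repair genes tested, edgeR called none, with a median log2 fold change of -0.75 and -0.29. At an unadjusted p under 0.05, 1 translesion gene was higher and 4 lower, and 3 mismatch repair genes were lower. DESeq2 called 1 translesion gene higher and 2 lower and 2 mismatch repair genes lower, and limma called 1 of each list lower. Without either PR replicate, edgeR called 1 mismatch repair gene and 1 translesion gene lower, and without parental replicate 1 it called 1 translesion gene lower. POLH, the polymerase that copies past platinum adducts within a strand, had a log2 fold change of 0.95 and POLQ, the polymerase of end joining at resected breaks, one of -3.14 ± 0.82 (adjusted p = 0.0517).

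Of the genes that carry platinum into or out of cells, none of 18 tested was called by edgeR or DESeq2 and none of 16 by limma, 2 were higher at an unadjusted p under 0.05, the median log2 fold change was 0.06, and 7 lay above and 4 below every parental library, beside 35.5% and 26.7% of all genes tested. Without parental replicate 3, 1 was called higher. SLC31A1 (CTR1), the copper importer known to carry cisplatin, had an FPKM of 20.5, 16.1 and 15.3 in the parental libraries and 14.8 in the CR library (log2 fold change -0.23 ± 0.32, adjusted p = 0.718). The copper-exporting ATPase ATP7A was at 3.73, 2.97 and 3.48 against 3.27 (-0.06 ± 0.35, adjusted p = 0.967). Its relative ATP7B was at 0.709, 0.933 and 1.51 against 1.78 (0.72 ± 0.44, adjusted p = 0.362). The highest fold change of the list was that of the exporter ABCC3, with 9.13, 9.70 and 24.7 in the parental libraries and 39.5 in the CR library (1.41 ± 0.52, adjusted p = 0.133). ABCC2, which exports glutathione conjugates, was at 57.4, 50.6 and 64.9 against 97.7 (0.76 ± 0.31, adjusted p = 0.170).

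**Figure D3:**
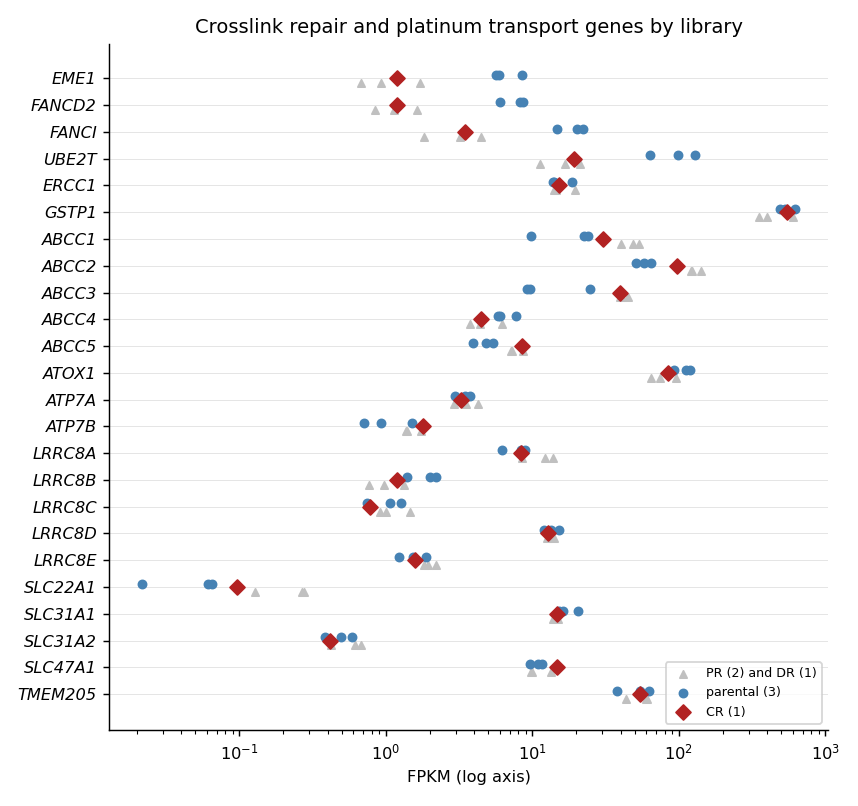
FPKM by library on a log axis of the 4 named crosslink repair genes, ERCC1, GSTP1 and the 18 platinum transport genes tested, with 1 point per library for parental (3), CR (1), and PR and DR (3 together) cells. The CR library lies below the parental libraries for FANCD2 (1.19 against 6.04 to 8.63) and within their range for ERCC1 (15.2 against 13.8 to 18.6) and ATP7A (3.27 against 2.97 to 3.73).

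Glutathione and metallothioneins bind platinum in the cytosol. Of 23 glutathione and thiol genes tested, 1 was called higher (4.35%) and none lower, which is close to the 4.07% of all genes tested called higher, and the median log2 fold change was 0.04. The called gene was GGT1, the γ-glutamyltransferase that breaks down extracellular glutathione, at an FPKM of 14.1, 8.19 and 9.24 in the parental libraries and 34.9 in the CR library (log2 fold change 1.73 ± 0.34, adjusted p = 0.0197). It was not called without parental replicate 2, and the list held 2 calls higher without parental replicate 1 and 1 in each direction without parental replicate 3. GSTP1, a glutathione transferase, was at 529, 625 and 494 against 551 (log2 fold change 0.00 ± 0.29). Of 3 metallothioneins tested, MT1A was called lower, at 17.3, 17.0 and 17.0 against 2.95 (-2.54 ± 0.58, adjusted p = 0.0332), though the metallothionein genes are near-identical copies. The call was lost without parental replicate 2. MT2A, the most abundant of them, was at 86.9, 149 and 207 against 104.

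**Figure D4:**
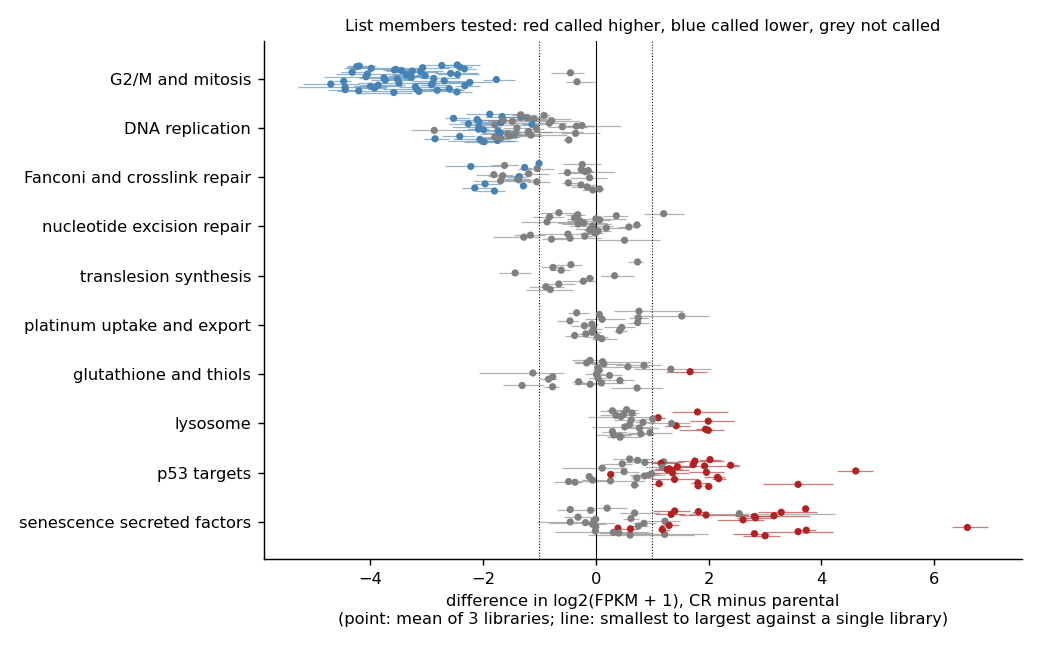
Difference in log2(FPKM + 1) between the CR library and the parental libraries for each tested member of 10 gene lists, with the mean over the 3 parental libraries as a point and the smallest to largest difference from a single parental library as a line. Members called higher are red, called lower blue and not called grey, and dotted lines mark 2-fold. All 50 G2/M members lie left of 0, and 34 of 40 p53 targets lie right of 0 against every parental library.

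Of 41 secreted factors known from senescent cells tested, 19 were called higher (46.3%) and none lower, beside 4.07% and 2.17% of all genes tested. The median log2 fold change was 1.22. It was the same with the 3 members that had 0 counts in every parental library set to a floor of 3 counts per library. Besides MMP1, SERPINE2, GDF15 and IGFBP7, whose FPKM of 14.4, 14.7 and 14.6 rose to 204, the called members included cytokines that were abundant already. IL6 was at 60.3, 72.9 and 108 in the parental libraries and 482 in the CR library (log2 fold change 2.51 ± 0.37, adjusted p = 0.00664), CXCL8 at 74.5, 94.8 and 61.0 against 544, and CXCL1 at 180, 126 and 115 against 1109. CCL2, a monocyte chemokine, was called with 21 counts in the CR library and 0 in each parental library, which is close to the limit of detection. Members with 0 parental counts passed the count filter only through drug-survived libraries, so no call lower was possible for them. Of the other members, IL1A (log2 fold change -1.06), CCL20 (-0.32) and TGFB1 (-0.09) were not called. With a replicate left out, 13 to 18 members were called higher, with 13 without parental replicate 2 or PR replicate 2, and with the form of name as a covariate 3. Without parental replicate 1, 1 member was called lower.

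Of 35 genes for collagens, laminins and other matrix proteins tested, 16 were called higher (45.7%) and 3 lower (8.57%). Over all genes tested these shares were 4.07% and 2.17%. The median log2 fold change of the list was 1.61. FN1 (fibronectin) had the highest level, with an FPKM of 467, 171 and 911 in the parental libraries and 4804 in the CR library (log2 fold change 3.18 ± 0.62, adjusted p = 0.0190). The parental libraries differed among themselves by more than 5-fold in this gene. COL7A1 was at 1.03, 0.810 and 1.01 against 24.6 (4.68 ± 0.32, adjusted p = 2.51e-04). COL3A1, a fibrillar collagen, went the other way, at 13.6, 21.3 and 26.5 against 2.50 (-3.05 ± 0.50, adjusted p = 0.00968), and the basement membrane collagens COL4A1 and COL4A2 were also called lower. TNC and COL17A1, called higher, had 27 and 32 counts in the CR library and 0 in every parental library. The list holds 3 tested members with 0 counts in every parental library. They passed the count filter only through drug-survived libraries, so no call lower was possible for them. Calls numbered 9 higher and 1 lower without parental replicate 2, 10 and 1 without either PR replicate, and 2 and 0 with the covariate. Of 12 integrins tested, 2 were called higher (16.7%) and none lower, beside 4.07% and 2.17% of all genes tested. Among the integrins, 1 had 0 counts in every parental library. It passed the count filter only through drug-survived libraries, so no call lower was possible for it. ITGA3, the laminin-binding α3 chain, was at 1.501, 1.34 and 2.31 against 27.4 (3.97 ± 0.36, adjusted p = 8.58e-04), and ITGB3 at 0.00789 or lower against 0.122.

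Of 25 lysosomal genes tested, 6 were called higher (24%) and none lower, beside 4.07% and 2.17% of all genes tested. Of the 25, 22 lay above every parental library, beside 35.5% of all genes tested, and the median log2 fold change was 0.75. PSAP, the precursor of the saposins that help break down sphingolipids, had an FPKM of 252, 242 and 294 in the parental libraries and 1011 in the CR library (log2 fold change 1.93 ± 0.28, adjusted p = 0.00557). CTSD, an aspartic protease, was at 188, 110 and 166 against 605, GAA, the acid α-glucosidase, at 12.6, 12.4 and 22.3 against 63.3, and GRN (progranulin) at 46.7, 29.6 and 60.1 against 155. These 4 were picked as the called members with the largest difference, so CR values above every parental value are no separate result. Without parental replicate 2, 2 members were called, without either PR replicate 3, and with the covariate 0.

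Of 24 cholesterol synthesis and uptake genes tested, 5 were called lower (20.8%) and none higher, beside 2.17% and 4.07% of all genes tested. Of the 24, 20 lay below every parental library, beside 26.7% of all genes tested, and the median log2 fold change was -0.94. ACAT2, which makes acetoacetyl-CoA, had an FPKM of 28.9, 41.7 and 27.2 in the parental libraries and 5.66 in the CR library (log2 fold change -2.52 ± 0.40, adjusted p = 0.00806). INSIG1, which holds the sterol sensor SCAP in the endoplasmic reticulum, was at 8.17, 25.9 and 13.9 against 2.87, STARD4, a sterol carrier, at 9.19, 21.9 and 14.3 against 2.92, and EBP, a sterol isomerase, at 56.1, 58.8 and 40.5 against 13.4. These 4 were picked as the called members with the largest difference, so CR values below every parental value are no separate result. Calls numbered 1 without parental replicate 2, 9 without parental replicate 3 and 0 with the covariate.

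Among 27 genes of the BCL2 family and apoptosis tested, 1 was called higher (3.70%) and none lower, which is close to the 4.07% of all genes tested called higher. It was CFLAR, which blocks caspase-8, with a log2 fold change of 1.23 ± 0.30 in the counts (adjusted p = 0.0429), and with an FPKM of 5.32, 6.67 and 7.29 in the parental libraries and 10.4 in the CR library. The call was lost without any 1 of the parental replicates 1 and 2 and the PR replicates. The anti-apoptotic genes MCL1 (92.8, 97.2 and 75.3 against 92.8) and BCL2L1 (13.1, 12.2 and 10.5 against 12.3) were within the parental range. Of 30 interferon-stimulated genes tested, 2 were called higher and 2 lower (6.67% each), beside 4.07% and 2.17% of all genes tested. OASL, an antiviral protein, was at 0.0134, 0.0430 and 0.0364 in the parental libraries and 1.82 in the CR library (log2 fold change 5.81 ± 0.53, adjusted p = 8.58e-04), and HLA-B, which presents antigen, was the other that rose. OAS3 and IFI44L were called lower, at 16.6, 12.9 and 18.7 against 3.41 and at 5.86, 4.17 and 2.82 against 0.936. Of 16 targets of ATF4, the factor of the integrated stress response, 1 was called higher (SESN2) and 1 lower (6.25% each). These shares stand beside the same 4.07% and 2.17% of all genes tested. The member called lower was PHGDH, of serine synthesis, at 107, 97.1 and 112 against 31.1. No ATF4 target was called in either direction without either PR replicate. Without parental replicate 2, calls numbered 1 higher and 1 lower among interferon-stimulated genes and 0 and 2 among ATF4 targets, and without parental replicate 3 the ATF4 targets held 3 and 1.

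SEZ6L2, CHPF and STC1, which the study singled out, were each called higher. They had been picked on these libraries, so their direction here is not independent evidence. SEZ6L2, a transmembrane protein encoded at chr16:29871159-29899550 of GRCh38.p14, had an FPKM of 3.21, 2.101 and 4.54 in the parental libraries and 20.3 in the CR library, with a log2 fold change of 2.60 ± 0.39 and an adjusted p of 0.00686. CHPF, which builds chondroitin chains, was at 12.3, 9.89 and 11.0 against 41.9 (1.90 ± 0.29, adjusted p = 0.00679). STC1, a secreted glycoprotein hormone, was at 0.128, 0.838 and 0.483 against 9.21 (4.26 ± 0.61, adjusted p = 0.00557). All 3 lay more than 2-fold above every parental library, and each was called in every fit run except the one with the form of name as a covariate.

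The CR library was also set against the PR and DR libraries, a contrast in which the parental libraries enter only through the shared estimate of the spread. No gene was called by edgeR (0% of 21362, smallest adjusted p 0.9999). At an unadjusted p under 0.05 there were 906 of the 21362 genes, 144 higher and 762 lower in the CR library. The total is fewer than this threshold passes on average where no gene differs, so it shows no difference between drugs by itself. It was uneven by direction, with most of these genes lower in the CR library, and the cause was not tested. The median log2 fold change against the other drugs was -0.20 for senescence secreted factors, -0.28 for matrix genes, -0.37 for G2/M genes and -0.82 for epithelial markers. It was 0.26 for DNA replication genes and 0.10 for p53 targets, beside -0.04 over all genes tested. DESeq2 called 15 genes, 2 higher and 13 lower, and limma on log2(FPKM + 1) called 1. That gene, CLCA2, a membrane protein of epithelia, was called by both and had an FPKM of 10.8, 7.64 and 10.9 in PR replicate 1, PR replicate 2 and the DR library, 0.842 in the CR library and 0.0402 or lower in the parental libraries. The CR value of this gene lay between those of the parental and of the other drug-survived cells.

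The CR library was more than 2-fold beyond all 6 other adherent H460 libraries for 6 genes, which are named after their values were seen. GALC, a lysosomal galactosylceramidase, had an FPKM of 246 in the CR library, 71.6, 80.8 and 74.9 in the parental libraries and 98.7 to 103 in the PR and DR libraries. It was called against parental cells (log2 fold change 1.69 ± 0.27, adjusted p = 0.00806) and by DESeq2 against the other drugs (adjusted p = 0.00144), but not by edgeR there (unadjusted p = 4.18e-04). MELTF was at 88.7 in the CR library and at 26.3, 37.4 and 43.0 in the PR and DR libraries. CXCL5, a neutrophil chemokine, was the reverse (log2 fold change from parental cells -2.51 ± 0.64, adjusted p = 0.0466, not called without parental replicate 2 or either PR replicate), at 13.1 in the CR library, 117, 77.0 and 31.4 in the parental libraries and 31.8 to 51.4 in the PR and DR libraries. The other 3 were the antisense gene SLC9A3-AS1 and the ribosomal pseudogene RPL41P3, both higher, and the small nucleolar RNA SNORD14D, lower. None of these 3 was called against parental cells by edgeR in the fit of 7 libraries, each was called in 2 of the other fits run (adjusted p of 0.0208 to 0.388 over all of them), and strand and shared reads leave their values uncertain. Side by side, CDKN1A was at 654 in the CR library and 343, 498 and 404 in the PR and DR libraries, and MMP1 at 182 against 220, 364 and 45.2. Against parental cells, all these comparisons share the same 3 control libraries.

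Because platinum adducts block polymerases along a template, the change was also described by gene length. Protein-coding genes tested with a RefSeq length, 15327 of 15382, were divided into 10 bins of genomic length, from a median of 3.07 kb to one of 281 kb. The median log2 fold change from parental cells lay between -0.09 and 0.13 in all bins, with the highest value in the shortest genes and 0.02 in the longest. The middle 50% of genes in each bin spanned far more than this. The share called lower was 2.35% in the shortest bin, 3.72% in bin 6 and 1.44% in the longest, and the share called higher was 5.35% in the shortest bin, 3.72% in bin 4 and 6.52% in the longest. No steady trend with length was seen in either share. Against the PR and DR libraries, the median log2 fold change in the counts was lower at each step, from 0.08 in the shortest bin to -0.10 in the longest. In single libraries the median difference in log2(FPKM + 1) went from -0.01 to -0.05 against PR replicate 1 and from 0 to -0.06 against the DR library, and from -0.10 to -0.02 against PR replicate 2, between the same bins. The direction was thus not the same against every one of these libraries. By type of gene, 707 of 15382 protein-coding genes tested were called higher and 429 lower, and of 3675 lncRNA genes 137 were called higher and 8 lower. The count filter used all 7 libraries. A gene with no parental counts could pass it through drug-survived libraries alone and could not be called lower. Over all genes, calls higher did not outnumber calls lower with DESeq2 or limma. Of the genes called higher, 347 had an FPKM under 1 in all 4 libraries, against 30 of those called lower.

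**Figure D5:**
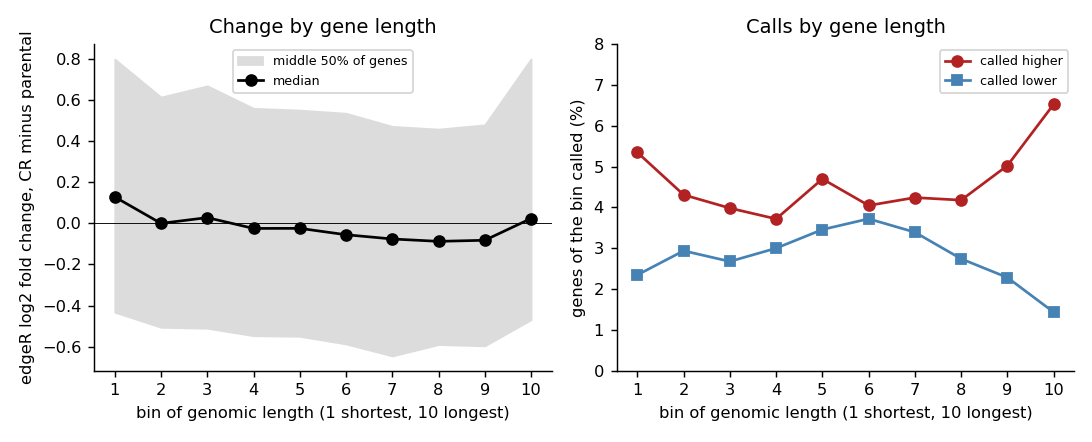
Left, the median (points) and middle 50% (grey) of the edgeR log2 fold change of CR against parental cells in 10 bins of genomic gene length, and right, the percent of genes in each bin called higher (red) or lower (blue). The medians stay between -0.09 and 0.13, and the longest bin has the highest share called higher, 6.52%, and the lowest share called lower, 1.44%.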

How the data were processed

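Poly(A) RNA libraries of H460 cells were sequenced by the authors. Per the labels' processing notes, the tools were bcl2fastq 1.8.4, Trimmomatic, HISAT2 2.1.0 and StringTie 2.1.3b with GRCh38. The counting program, its use of strand and of shared reads are not given in the sources used here. The authors deposited, for 46427 genes, read counts without normalization, FPKM values normalized for transcript length and library size, and TPM values, which were not analysed further. Counts of 1 were rarer than counts of 2 in all libraries (687 and 1078 genes in the CR library), so a count may not be 1 independent read.

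Counts of 7 adherent H460 libraries (3 parental, 1 CR, 2 PR, 1 DR) were fitted with edgeR 4.0.16 (glmQLFit, TMM, filterByExpr, R 4.3.3), leaving 3 residual degrees of freedom, with Benjamini-Hochberg adjustment over the 21362 genes tested. The SE given with a log2 fold change was derived from the edgeR test, as the absolute log2 fold change divided by the square root of the F statistic. Levels and the 2-fold description used log2(FPKM + 1). The fits were tested on simulated data. Alternatives were other scalings and filters, DESeq2 1.42.0, limma 3.58.1, a covariate for the form of library name, fewer libraries and other pseudocounts. Figures were drawn with matplotlib 3.10.9.

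The members and the 26 gene lists were chosen with earlier results of these data known. Named are the 12 largest rises and 12 largest falls among genes called and more than 2-fold from every parental library, up to 4 called members per list with the largest difference, all called members of the platinum, excision repair, translesion and BCL2 lists, and 9 genes fixed by name. Other members named in the text were chosen after their values were seen. GC content was not examined. Some genes of the lists are counted but not reported here by name.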

Additional observations from a re-analysis of the deposited data

Results flagged for a closer look

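MELTF, which was more than 2-fold higher in the CR library than in all 6 other adherent H460 libraries, had an FPKM of 11.2 in the H460 TS library, a tumor spheroid culture that entered no comparison here, against 1.81 to 4.89 in the parental libraries. This single library was outside the main measurement and no test was run on it. Named genes could not be examined for outlying samples, since no group here holds 4 libraries.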

How the results depend on the processing

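Of 1200 values for named genes over the alternatives, 1041 kept their direction and side of the threshold, 141 lost and 7 gained a call, and 11 changed sign, all in genes near 0. These were ATP7A (log2 fold change 0.068 with upper-quartile scaling and 0.274 with the form of library name as a covariate), ERCC1 (-0.012 with library size alone, -0.014 with limma, -0.141 with the covariate, -0.100 to 0.136 with a replicate left out) and GSTP1 (-0.040 with library size alone, -0.088 with the covariate, -0.073 to 0.059 with a replicate left out). Against parental cells, DESeq2 called 2530 genes (1266 lower) and the fit of only parental and CR libraries 754 (406 higher, 348 lower). The covariate gave 34 calls, 34 higher and 0 lower, of which 12 were list members, 12 higher and 0 lower, and 3150 genes at an unadjusted p under 0.05. With 1 replicate left out, calls ranged from 306 to 1818 (253 to 1155 higher, 53 to 721 lower) and called list members from 62 to 197 (44 to 85 higher, 18 to 112 lower), each lowest without parental replicate 2. The cause was not tested. With upper-quartile scaling the median over all genes tested was 0.109 (log2) and there were 1201 higher and 498 lower calls. Against the other drugs, DESeq2 called 15 and limma 1. Genes more than 2-fold from every parental library numbered 1157 higher and 829 lower with a pseudocount of 0.1, 739 and 893 against the parental mean, 778 and 1240 against parental replicate 2 alone, and 450 to 585 higher and 493 to 920 lower with a parental replicate left out, highest without replicate 3. No paired analysis was possible because the CR group has 1 library and its label carries no replicate number. The CR library has no replicate of its own, and counting error matters mainly for the genes with few counts.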
